A study of Sus scrofa with 36 samples.

Results

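The signals of 6 genes, PLEKHD1, TAOK3, PTPMT1, TRIM46, MYL6B and CPXM2, were followed in the liver of Large White × Creole cross pigs and of both parental breeds. They were chosen by these same signals, namely F1 against Large White, Creole or the mean of both at each temperature. Those contrasts are therefore given as a description with no test. They were read by 10 probes of 60 bases, out of 60305 probes on the array, of which 44796 passed the filter on dim signals and named 11411 genes. Over those kept probes a breed contrast passed the test for 18.4% in F1 minus LW, 1.5% in F1 minus CR and 1.12% in F1 minus mid-parent, and nothing is read from the members against these shares. All 10 were well above background on 36 of 36 arrays, so no member lay near the required minimum of 6 arrays and none was lost to the filter.

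Liver RNA came from 36 castrated male growing pigs, with 12 Large White (LW), 12 Creole (CR) and 12 crosses of these breeds (F1). In each breed 6 animals were killed at thermoneutrality (TN, 24 °C) and 6 after a short heat exposure (HS), for which the sample labels give 30 °C and the growth protocol 32 °C. Per the study's methods the HS pigs were killed after the TN pigs, so heat, day of slaughter and the slightly greater age of the HS pigs cannot be told apart. Per the same methods each breed was made up of a few blocks of littermates, and each pen held a single breed. Sire, dam and pen are not in the labels, so related animals could not be modelled. Littermates thus entered the tests as independent animals, and p-values measure the spread between these animals. Each liver was hybridised once, on 1-colour Agilent arrays, and values are log2 signal after quantile normalization. Because the array gives 1 number per probe and liver, fewer cells of a type and less RNA per cell cannot be told apart.

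Both Large White and Creole are breeds of the same species, and an F1 animal carries 1 set of chromosomes from each. Where the alleles of a gene differ in output, the additive expectation for the cross is the mean of its parents, called the mid-parent value. A signal at one parent's level or outside both is a departure from it. Here the mid-parent value was the mean of log2 breed means. Where the parents differ, it lies below the log2 of their mean linear signal, and departures on the linear scale were not computed. Mitochondrial genes are among the exceptions, since they are inherited from the dam alone. The output of single alleles was not measured here.

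Of the 6 genes, TAOK3 encodes a kinase of the TAO family that acts upstream of stress MAP kinases, and PTPMT1 encodes the mitochondrial phosphatase that makes phosphatidylglycerol, a precursor of the inner membrane lipid cardiolipin. MYL6B encodes an alkali light chain of myosin, and TRIM46 a tripartite motif protein best known for bundling microtubules in neurons. CPXM2 encodes a secreted protein of the carboxypeptidase family that lacks residues for catalysis. PLEKHD1 encodes a protein with a pleckstrin homology domain whose role is little known.

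The probe sequences are shown because probes of the same gene disagreed, so that a signal belongs to a probe before it belongs to a gene. They were read from the deposited array files, are written in lower case with no base singled out, and were not placed on a genome here. Printed are the single PLEKHD1 probe, TAOK3 probes 1 and 3, which disagreed, TRIM46 probe 2, which did not follow the other TRIM46 probe, and 1 probe of a pair that did agree.
PLEKHD1 probe: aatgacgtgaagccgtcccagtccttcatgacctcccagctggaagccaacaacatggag
TAOK3 probe 1: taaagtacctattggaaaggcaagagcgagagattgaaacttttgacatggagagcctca
TAOK3 probe 3: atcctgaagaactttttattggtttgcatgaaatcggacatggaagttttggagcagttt
TRIM46 probe 2: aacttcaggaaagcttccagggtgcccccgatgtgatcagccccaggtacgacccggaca
CPXM2 probe 2: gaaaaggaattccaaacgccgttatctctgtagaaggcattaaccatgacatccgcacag
Their GC content ran from 36.7% in TAOK3 probe 3 to 60% in TRIM46 probe 2. Probes of 1 gene are numbered from the highest mean signal down.

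Between arrays, the correlation over kept probes lay between 0.979 and 0.994. All 8 hepatocyte marker genes were measured and their summed signal ran from 20.89 to 21.07 on the log2 scale over the 36 livers. The first principal component (18.6% of the variance) placed 10 LW livers between -44.2 and -24.8, and 4 libraries stood apart from their group on it: LW TN replicates 1 and 6 at -4.8 and -3.0, and F1 HS replicates 1 and 2 at -17.0 and -21.3. F1 TN replicate 3 lay at -18.1. When the pigs were ranked by the animal numbers in the labels, ranks 1 to 10 were LW, ranks 11 and 12 were these F1 HS pigs, ranks 13 and 14 were these LW TN pigs, and the other F1 pigs followed at 15 to 24. Whether the breed labels of these 4 pigs were exchanged was not tested. The labels were kept, and LW and F1 values hold only as far as they are right. Some values that differ without these 4 libraries are given both ways. All other values, and the counts of genes passing within each list, rest on the 36 livers as labelled.

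The probe annotated to PLEKHD1 (chr7:93152946-93187730, Sscrofa11.1) gave a higher signal in every cross than in most parental pigs. It was a dim probe, with a mean log2 signal of 6.317, at percentile 32.2 of kept probes. In F1 the log2 signal was 6.71 at the lowest, 6.88 at the median and 7.20 at the highest (n = 12). The corresponding values were 5.51, 5.85 and 7.03 in LW (n = 12) and 5.53, 5.74 and 7.27 in CR (n = 12). The median parental pig therefore lay below every F1 pig, but the ranges overlapped, because 3 LW and 2 CR animals reached the lowest F1 value.

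The 36 PLEKHD1 values did not spread evenly. The widest gap among them, located after the values were seen, ran from 5.91 to 6.65, with 18 livers on either side of it. Above the gap lay 12 of 12 F1, 4 of 12 LW and 2 of 12 CR animals. The 4 LW animals were TN replicates 2 and 3 and HS replicates 1 and 2, with 7.01, 7.03, 6.65 and 6.83. The 2 CR animals were TN replicate 6 (7.27) and HS replicate 1 (6.85), each alone among 6 of its group. By animal number the 4 LW pigs held ranks 4, 5, 2 and 3, and the 2 CR pigs ranks 25 and 26. Whether they were littermates is not in the labels.

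**Figure D1:**
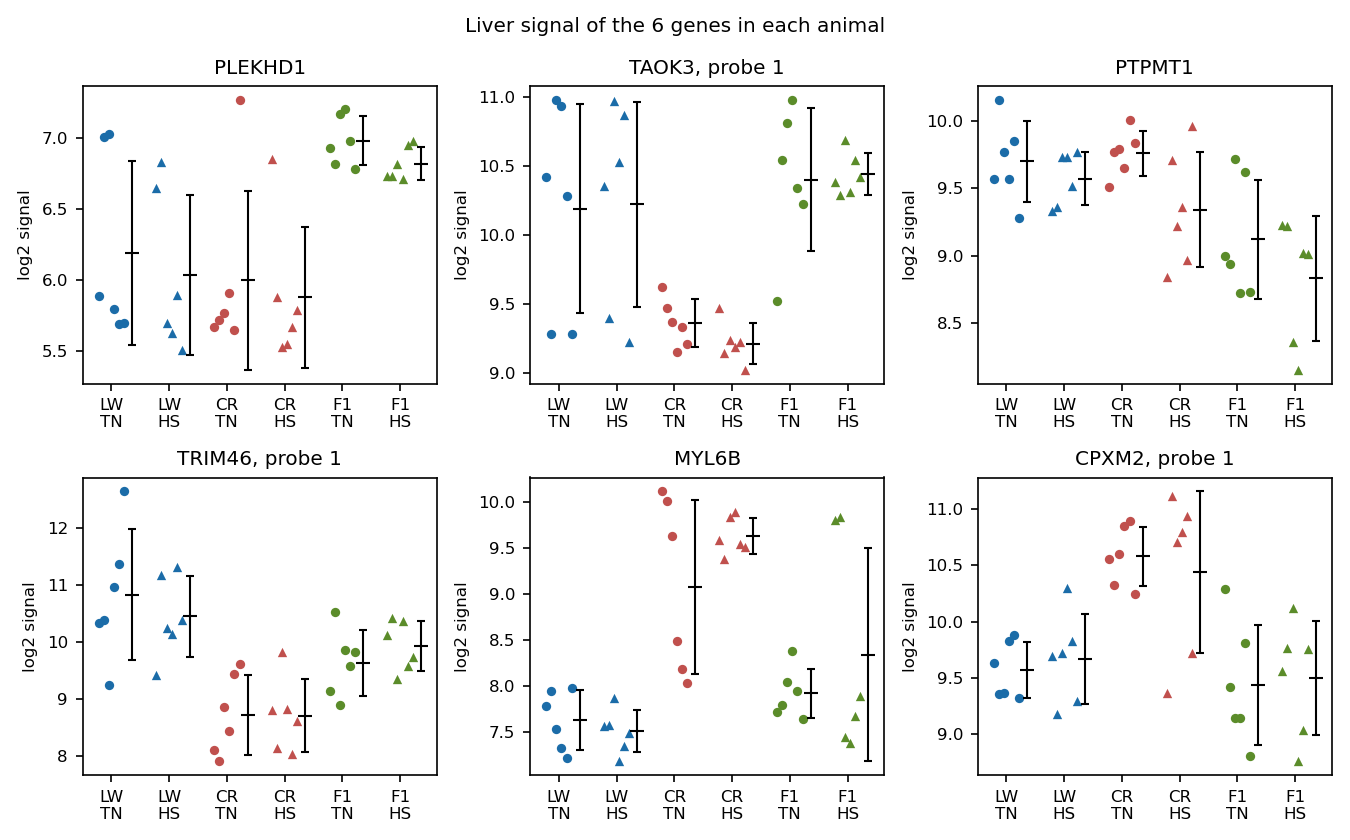
Log2 signal of the probe with the highest mean for each of the 6 genes (vertical axes, 1 scale per panel) in 6 groups of 6 livers. Points are animals, circles TN and triangles HS, and the black bar beside each group is its mean ± 1 SD. PLEKHD1 lies at 6.71 or above in all 12 F1 pigs, CR stays at or below 9.62 for TAOK3, and F1 HS replicates 1 and 2 lie at 9.81 and 9.84 for MYL6B.

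F1 minus LW in PLEKHD1 was 0.79 ± 0.266 (SE, n = 6 per group) in TN and 0.79 ± 0.266 in HS. F1 minus CR was 0.98 in TN and 0.94 in HS, and F1 minus mid-parent 0.89 and 0.86. The departure was thus similar in size at both temperatures, with a difference between HS and TN of -0.02 (95% interval -0.69 to 0.64). Without the 4 libraries the mean over both temperatures stayed 0.88 above mid-parent, as with all 36. With the processed signal scaled to the 75th percentile in place of quantile normalization, F1 minus CR was 1.62 in TN and 1.58 in HS.

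The genes with the pattern most like PLEKHD1 over the 36 arrays, among all symbols with a kept probe, were ND1, ND2 and COX1. These encode subunits of respiratory complexes I and IV, and they lie on the mitochondrial chromosome while PLEKHD1 lies on chromosome 7. Pearson's r was 0.96 for each, and 0.94, 0.93 and 0.93 after group means were removed. The correlations are descriptions, and their points share array, animal and normalization.

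The same livers carried the high level in these probes. The best matching ND1 probe had its widest gap between 13.52 and 15.28, and the 18 livers above it were the 18 above the PLEKHD1 gap. The count was 18 of 18 for ND2, between 13.83 and 15.80, and for COX1, between 14.47 and 16.28. F1 lay between 15.37 and 16.19 in ND1, with LW from 12.18 to 15.58 and CR from 12.07 to 15.87. The comparison with the other mitochondrial probes was made after this was seen. Over the 128 kept probes of 13 mitochondrial genes, r with PLEKHD1 had a median of 0.63 and ran from -0.64 to 0.96, and 17 exceeded 0.9. Of 18 probes on the array above 0.9, 17 were of mitochondrial genes and 1 had no name. The correlation thus held for some probes of a mitochondrial gene and not for others, with ND1 probes from -0.55 to 0.96 and COX1 probes from -0.36 to 0.96. The PLEKHD1 signal rests on 1 probe, and its longest run of bases shared with any of these 128 probes, on either strand, was 10. The rest of the mitochondrial sequence was not compared, and whether the probe also detects mitochondrial RNA was not tested.

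**Figure D2:**
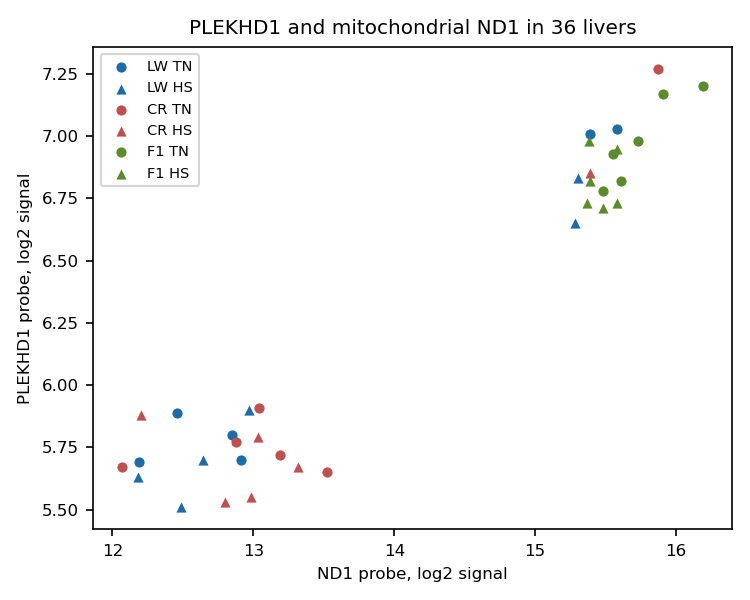
Log2 signal of the PLEKHD1 probe (vertical axis) against the ND1 probe most like it (horizontal axis) in 36 livers, coloured by breed, with circles for TN and triangles for HS. The points form 2 clusters of 18 livers, and the upper one holds all 12 F1, 4 LW and 2 CR pigs.

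No such pattern was seen in the genes beside PLEKHD1 on chromosome 7. Among 23 genes with a kept probe whose start lay within 2 Mb, r with PLEKHD1 had a median of 0.01 and a highest value of 0.33, for ARG2. Of its 10 nearest neighbours, 0 passed the test for F1 minus mid-parent (limma, smallest adjusted p = 0.134), where 1.22% of all symbols did.

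For PTPMT1 (chr2:15044432-15052815) the cross fell below both parents. In F1 the log2 signal was 8.15 at the lowest, 9.01 at the median and 9.72 at the highest. It was 9.28, 9.65 and 10.16 in LW, and 8.84, 9.68 and 10.01 in CR. Thus 10 of 12 F1 pigs lay below every LW pig, and the exceptions were TN replicates 3 and 5 at 9.72 and 9.62. Only 4 of 12 lay below every CR pig, since CR HS reached down to 8.84.

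PTPMT1 was the gene whose parents lay closest to each other relative to the cross. CR minus LW was -0.08 ± 0.136 (SE), against -0.66 for F1 minus LW and -0.58 for F1 minus CR over both temperatures. F1 minus mid-parent was -0.61 ± 0.169 in TN and -0.63 ± 0.169 in HS. Without the 4 libraries the mean departure over both temperatures was -0.69, against -0.62 with all 36.

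The symbols most like PTPMT1 were C1ORF151, GPX1 and PDK3, with r of 0.84, 0.84 and 0.82, and 0.69 to 0.75 after group means were removed. GPX1 encodes a glutathione peroxidase and PDK3 a kinase that holds back pyruvate dehydrogenase. In GPX1 F1 ranged from 14.40 to 15.22, with LW from 15.03 to 15.28 and CR from 14.98 to 15.44. In PDK3 F1 ranged from 7.91 to 8.85, with LW from 8.52 to 9.16 and CR from 8.56 to 9.15. The lowest pigs were again F1 in both genes, and the breeds overlapped.

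The nearest measured gene before PTPMT1, KBTBD4, a substrate adaptor of a ubiquitin ligase, was also low in F1. Its start lies 7.7 kb away and its r with PTPMT1 was 0.75. Mean log2 signal was 8.36 in F1, 8.64 in CR and 8.79 in LW (n = 12 each). F1 minus mid-parent was -0.35 ± 0.0791 (limma, adjusted p = 0.018), and F1 minus LW was -0.42 (adjusted p = 0.00222). The remaining 9 of its 10 neighbours did not pass the mid-parent test, which 1.22% of all symbols passed. No second gene within 2 Mb, of 37, had r above 0.5.

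Among 12 measured genes of cardiolipin synthesis and remodelling, 0 passed for F1 minus mid-parent, where 1.22% of all symbols did. For F1 minus CR 0 passed, where 1.81% of all symbols did. For F1 minus LW 2 passed (16.7%), near the 17.4% of all symbols. TRIAP1, which carries phosphatidic acid across the intermembrane space, was -0.30 ± 0.0726 in F1 minus LW (limma, adjusted p = 0.00524), and STOML2, a cardiolipin-binding scaffold, was -0.23 ± 0.066 (adjusted p = 0.0148). Against mid-parent TRIAP1 was -0.22 (adjusted p = 0.0691), PHB2 -0.12 (adjusted p = 0.322) and PLSCR3 0.12 (adjusted p = 0.335).

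TAOK3 (chr14:34322016-34514234) was the gene in which the cross lay with the high LW pigs, and CR alone was uniformly low. For probe 1 the log2 signal in CR was 9.02 at the lowest, 9.23 at the median and 9.62 at the highest. It was 9.52, 10.40 and 10.98 in F1, and 9.22, 10.39 and 10.98 in LW. All F1 pigs but TN replicate 1 (9.52) were above every CR pig. LW fell apart into 8 high pigs and 4 pigs within the CR range, namely TN replicates 2 and 6 (both 9.28) and HS replicates 2 and 6 (9.40 and 9.22).

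The gap between high and low livers ran from 9.62 to 10.22 in probe 1, with 11 F1, 8 LW and 0 CR pigs above it. Probe 2 placed the same numbers of each breed above its own gap, from 9.49 to 9.77, and the probes correlated at 0.98 over 36 arrays. F1 minus CR was 1.04 ± 0.271 (SE) in TN and 1.22 ± 0.271 in HS for probe 1, and 0.91 and 1.14 for probe 2. F1 minus LW was 0.21 ± 0.271 at both temperatures for probe 1, less than its standard error.

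The third TAOK3 probe did not follow. Its log2 signal was 5.67 to 6.06 in F1, 5.72 to 6.16 in LW and 5.73 to 6.19 in CR, so the breeds overlapped throughout. Its r with probe 1 was -0.04 and with probe 2 0.02. Its spread within groups (SD 0.116) was low, at percentile 5.51 of kept probes, and it lies at the 23.5th percentile of their mean signal.

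**Figure D3:**
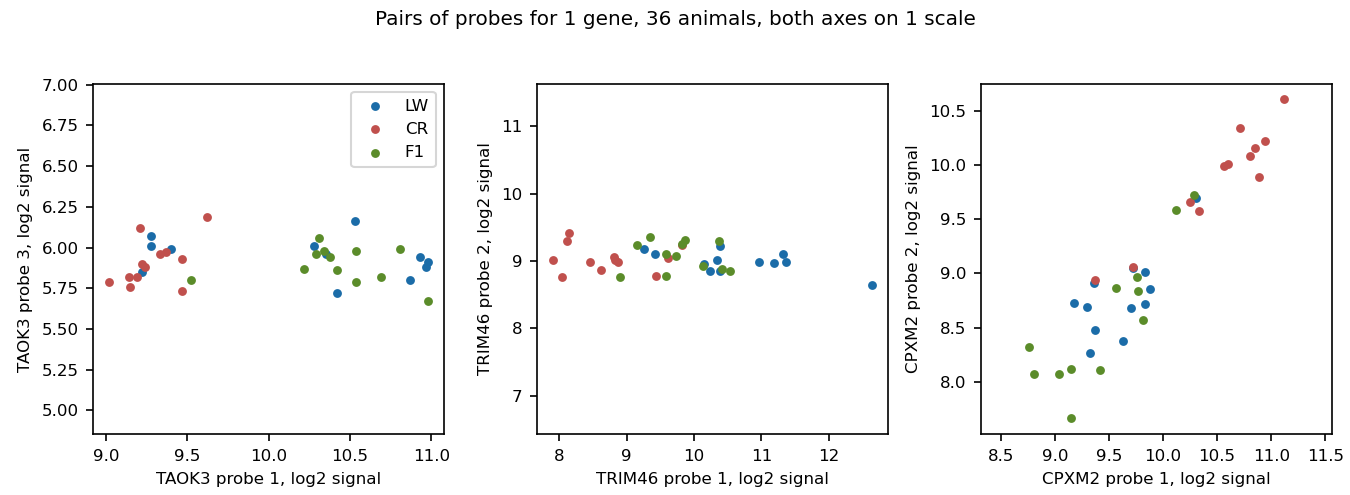
Pairs of probes for 1 gene in 36 livers, coloured by breed, with log2 signal on both axes at the same scale. TAOK3 probe 3 and TRIM46 probe 2 stay nearly flat (r of -0.04 and -0.23 with probe 1), while both CPXM2 probes rise together (r = 0.94).

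The symbols most like TAOK3 probe 1 were TLR7, POSTN and IGF2, with r of 0.73, 0.72 and 0.68 that dropped to 0.47, 0.42 and 0.50 within groups. None lies on chromosome 14. In POSTN, a matricellular protein of fibroblasts, CR ranged from 11.12 to 11.58 and LW from 11.66 to 12.61, with F1 from 11.11 to 12.51. CR was thus low here too, without the low LW pigs. Within 2 Mb of TAOK3 18 genes had r of at most 0.24.

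Among 14 measured relatives of TAOK3 (TAO kinases, the Hippo kinases and the stress MAP kinase arm), 0 passed for F1 minus mid-parent or F1 minus CR. Of all symbols 1.22% and 1.81% did. In F1 minus LW 1 passed (7.14%, against 17.4% of all symbols). SAV1, the scaffold of the Hippo kinases, was lower in F1 than in LW by -0.19 ± 0.0581 (limma, adjusted p = 0.0196). The nearest to a mid-parent departure were LATS2 at 0.12 (adjusted p = 0.268), SAV1 at -0.10 (adjusted p = 0.342) and MAP2K7 at 0.09 (adjusted p = 0.381). TAOK1 and TAOK2, the other kinases of the family, were 0.02 and -0.04 off mid-parent.

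CPXM2 (chr14:133246521-133376378) showed the opposite order, with CR high and F1 near LW. For probe 1 the log2 signal in CR was 9.37 at the lowest, 10.66 at the median and 11.12 at the highest. It was 8.76, 9.49 and 10.29 in F1, and 9.18, 9.66 and 10.30 in LW. The median CR pig was above every pig of both other breeds, and the CR pigs that were not were TN replicate 6 and HS replicates 1 and 6, at 10.25, 9.37 and 9.72.

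Probe 2 gave the same order, from 8.94 to 10.61 in CR, 7.66 to 9.73 in F1 and 8.26 to 9.70 in LW. Both probes placed 10 CR, 2 F1 and 1 LW pigs above their widest gap. In F1 those were TN replicate 1 (10.29 in probe 1) and HS replicate 3 (10.12), and in LW HS replicate 4 (10.30). F1 minus CR in probe 1 was -1.14 ± 0.26 (SE) in TN and -0.94 ± 0.26 in HS, and F1 minus LW -0.13 and -0.17.

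Among symbols with a kept probe, the only ones searched, CPXM2 probe 1 had no close positive match. The symbols most like it were WDR54, ECI2 and SLC27A1, all at r = 0.64, and at 0.37, 0.30 and 0.24 within groups. ECI2 is an isomerase of fatty acid oxidation and SLC27A1 a fatty acid transporter. In SLC27A1 CR ranged from 8.28 to 8.70 and F1 from 8.04 to 8.25, which did not overlap, with LW from 7.94 to 8.38. Of 27 genes within 2 Mb of CPXM2, the highest r was 0.44, for ACADSB, an acyl-CoA dehydrogenase of branched-chain catabolism. ACADSB was also the 1 of 10 neighbours called for F1 minus CR (10%, against 1.81% of all symbols), at -0.34 ± 0.0856 (limma, adjusted p = 0.0336). Its means were 15.77 in F1, 16.10 in CR and 15.76 in LW. Of 4 measured relatives among metallocarboxypeptidases, 0 passed in any of the 3 F1 contrasts. Of all symbols 17.4% passed against LW, 1.81% against CR and 1.22% against mid-parent. Off mid-parent, CPE was at -0.27 (limma, adjusted p = 0.318), CPM at 0.11 (adjusted p = 0.578) and CPN1 at -0.01 (adjusted p = 0.942).

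MYL6B (chr5:21554351-21558995) was low in LW, high in most CR pigs, and near LW in all but 2 crosses. In LW the log2 signal was 7.19 at the lowest, 7.55 at the median and 7.98 at the highest. In CR it was 8.03, 9.57 and 10.12, so that every CR pig lay above every LW pig. In F1 it was 7.38, 7.84 and 9.84, where 10 pigs lay between 7.38 and 8.38 and HS replicates 1 and 2 at 9.81 and 9.84.

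The widest gap ran from 8.49 to 9.38 and had 9 CR and 2 F1 livers above it. The 3 CR livers below were TN replicates 4, 5 and 6 at 8.49, 8.18 and 8.03, while the other CR TN pigs were at 9.63 to 10.12 and CR HS pigs at 9.38 to 9.89. Both high F1 libraries are among the 4 that stood apart on the first principal component. Without those 4, F1 ranged from 7.38 to 8.38 and the mean departure over both temperatures changed from -0.33 to -0.64. In HS alone, F1 minus CR changed from -1.29 to -2.03 and F1 minus mid-parent from -0.23 to -0.97.

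The symbols most like MYL6B were LOC100156335, LOC100154757 and LOC100157506, with r of 0.90, 0.90 and 0.89 and 0.79, 0.79 and 0.85 within groups. LOC100154757 lies on chromosome 5 as well, with its start at -1013.2 kb from that of MYL6B, and the others are on unplaced sequence. LOC100627493, at -1008.5 kb, had r of 0.85. In LOC100156335 CR ranged from 4.81 to 8.96, LW from 4.77 to 5.2 and F1 from 4.72 to 8.43. No LW pig was thus high in LOC100156335, as for MYL6B, but some CR and F1 pigs were as low as LW. LW stayed at 4.87 to 5.39 in LOC100154757 but ran from 4.77 to 6.61 in LOC100157506, where CR ran from 4.98 to 8.29. The low values of these probes were dim, below the 5.915 mean of TAOK3 probe 3 (percentile 23.5 of kept probes). Differences among those low values are not read.

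Those distant genes stood out against what lay between. Of 71 genes within 2 Mb of MYL6B, 2 had r above 0.7 and 3 above 0.5, with a median of 0.01. Among the 10 nearest neighbours, 1 passed for F1 minus mid-parent (10%, against 1.22% of all symbols). It was RPS26, a protein of the small ribosomal subunit, at -0.21 ± 0.0363 (limma, adjusted p = 0.00205). RPS26 means were 16.14 in F1, 16.29 in CR and 16.40 in LW, an order that MYL6B did not have.

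Of 11 measured genes of non-muscle myosin and its regulators, 1 passed for F1 minus mid-parent (9.09%, against 1.22% of all symbols). For F1 minus CR 0 passed, where 1.81% of all symbols did. PPP1R12A, the targeting subunit of myosin phosphatase, was higher in F1 by 0.27 ± 0.0629 (limma, adjusted p = 0.0197). The next were MYH9 at -0.10 (adjusted p = 0.316) and ROCK1 at 0.14 (adjusted p = 0.337). In F1 minus LW 2 passed (18.2%, near the 17.4% of all symbols), both higher in F1. They were PPP1R12A (0.39, limma, adjusted p = 0.000666) and ROCK1 (0.26, adjusted p = 0.0185). Summed smooth muscle markers ran from 13.40 to 14.12 in the F1 groups, 13.43 to 14.07 in LW and 13.45 to 14.02 in CR, and 0 of 5 passed in any F1 contrast.

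TRIM46 (chr4:94632073-94642756) had F1 means between those of its parents, as MYL6B did, and near their mean on the log2 scale. For probe 1 the log2 signal in LW was 9.25 at the lowest, 10.39 at the median and 12.64 at the highest. It was 8.90, 9.77 and 10.53 in F1, and 7.91, 8.71 and 9.82 in CR. All 12 F1 pigs were below the LW mean and above the CR mean, whereas single animals overlapped, with 6 of 12 F1 pigs above every CR pig and 2 of 12 below every LW pig.

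F1 minus mid-parent in TRIM46 probe 1 was -0.14 ± 0.346 (SE) in TN and 0.35 ± 0.346 in HS. On the log2 scale the cross thus stayed within about 1 SE of the mean of its parents. F1 minus CR was 0.91 in TN and 1.22 in HS, and F1 minus LW -1.19 and -0.52. The highest signal of all, 12.64, was that of LW TN replicate 6, 1 of the 4 libraries that stood apart, and without these 4 the LW mean was 10.47 in place of 10.64. Without LW TN replicate 6 alone, TRIM46 probe 1 in TN was -0.822 for F1 minus LW and 0.042 for F1 minus mid-parent. Without the 4 and F1 TN replicate 3 these were -0.703 and 0.176, so the sign of the mid-parent value in TN turned.

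TRIM46 probe 2 held level, at 8.76 to 9.36 in F1, 8.65 to 9.22 in LW and 8.76 to 9.41 in CR. Its r with probe 1 was -0.23, and F1 minus CR was 0.01 ± 0.114 (SE) in TN and 0.05 ± 0.114 in HS.

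The symbols most like TRIM46 probe 1 were ISG12(A), NPPA and RAD51B, with r of 0.96, 0.90 and 0.82 and 0.91, 0.85 and 0.77 within groups. ISG12(A) is an interferon-induced gene, NPPA encodes the atrial natriuretic peptide and RAD51B a DNA repair protein. In ISG12(A) LW ranged from 16.14 to 18.43, F1 from 15.79 to 17.29 and CR from 13.83 to 16.58, the order of TRIM46 probe 1. In NPPA it was 7.79 to 9.71, 7.82 to 8.39 and 7.63 to 8.17. None of the 3 lies on chromosome 4, and of 96 genes within 2 Mb of TRIM46 the highest r was 0.58, for THBS3.

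Markers of other cell types also differed between LW and F1, those of resident macrophages most often. Of 8 listed, 7 had a kept probe (MARCO had none), and their summed log2 signal was 15.75 to 16.35 in LW, 15.35 to 15.92 in F1 TN, 15.26 to 16.00 in F1 HS, 15.40 to 15.72 in CR TN and 15.11 to 15.65 in CR HS. In F1 minus LW 5 of 7 passed, against 17.4% of all symbols, and in F1 minus CR and mid-parent 0, against 1.81% and 1.22%. Of endothelial markers 5 of 6 had a kept probe (STAB2 had none). In F1 minus LW 3 passed, all lower in F1, namely PECAM1 (-0.35), CDH5 (-0.53) and LYVE1 (-0.38). In F1 minus CR 1 passed, against 1.81% of all symbols, namely KDR, which was higher in F1 (0.76). The summed endothelial signal ran from 12.36 to 13.03 in LW, 12.11 to 12.66 in F1 and 12.01 to 12.62 in CR. Of lymphocyte markers 3 of 8 and of stellate markers 2 of 7 passed in F1 minus LW, with summed signals that overlapped between all breeds. Their part in the TRIM46 and TAOK3 values was not tested.

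Of 10 measured genes listed with TRIM46 (tripartite motif proteins and tubulins), 0 passed for F1 minus mid-parent, where 1.22% of all symbols did. MID1, which binds microtubules, came nearest at -0.31 ± 0.0822 (limma, adjusted p = 0.0528). In F1 minus CR 1 passed (10%, against 1.81% of all symbols). MID1 was lower in F1 than in CR by -0.35 (adjusted p = 0.0466), a call kept in 16 of 46 alternatives and lost without the 4 libraries (adjusted p = 0.0748). In F1 minus LW 4 passed (40%, against 17.4% of all symbols), all lower in F1. They were TUBA1A, TUBA1C, TUBB2B and MID2, at -0.30, -0.36, -0.20 and -0.19. Of 47 alternatives, these calls held in 36, 31, 32 and 29. After MID1, the nearest to the mid-parent threshold were TUBB2B at -0.11 (adjusted p = 0.359) and TUBA1C at -0.19 (adjusted p = 0.396). THBS3, a neighbour that starts 19.4 kb before TRIM46, was lower in F1 than in LW by -0.70 (adjusted p = 0.00153), with means of 8.54 in LW, 7.83 in F1 and 7.39 in CR.

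**Figure D4:**
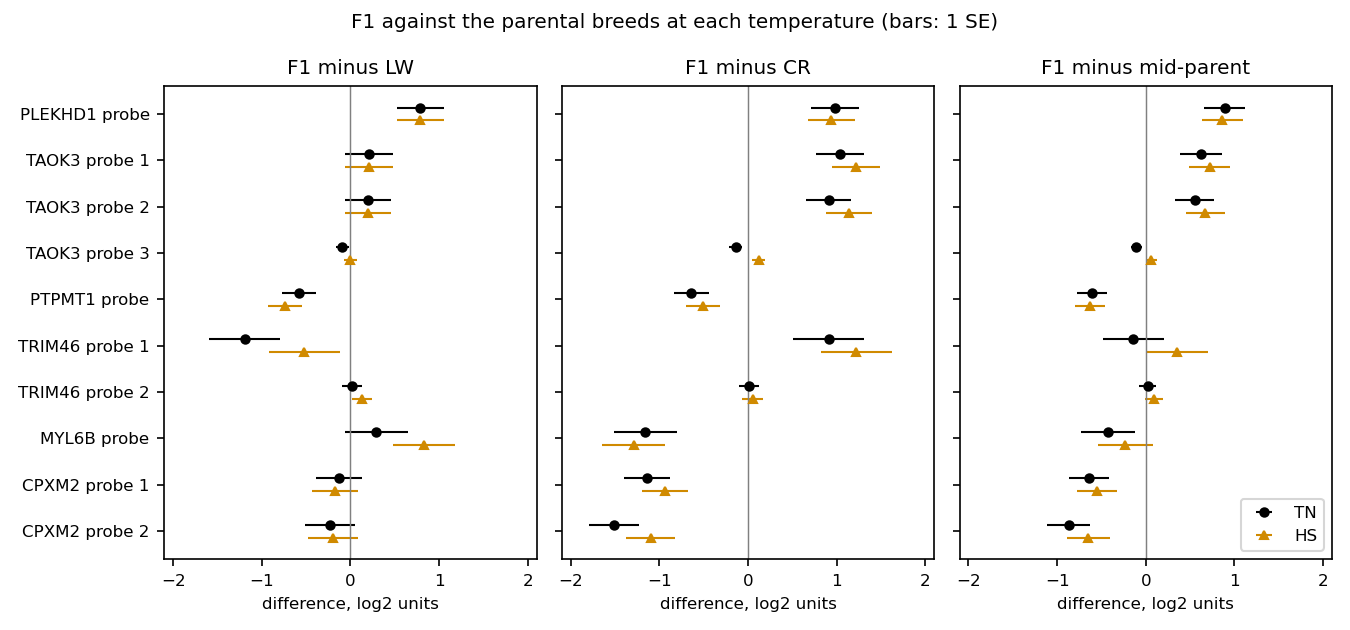
F1 minus LW, minus CR and minus mid-parent (horizontal axes, log2 units) for the 10 probes in TN (black circles) and HS (orange triangles), with bars of 1 SE from the fit over 36 arrays. PLEKHD1 lies right and PTPMT1 left of 0 in all panels, TAOK3 probes 1 and 2 and both CPXM2 probes lie near 0 against LW and away from 0 against CR, and TRIM46 probe 1 changes side between LW and CR.

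Over the 70 measured kin genes 1 passed for F1 minus mid-parent (1.43%) and 1 for F1 minus CR, and over 60 neighbours 2 (3.33%) and 1 (1.67%). The share among the representative probes of all 11411 symbols was 1.22% for F1 minus mid-parent and 1.81% for F1 minus CR. In F1 minus LW 12 kin genes (17.1%) and 8 neighbours (13.3%) passed, against 17.4% of all symbols. Without the 4 libraries, mid-parent calls among kin and neighbours together rose from 3 to 16 and those over all kept probes from 502 to 5992. Median differences from mid-parent were -0.02 in kin and 0.01 in neighbours, against -0.01 over all symbols. The 19 measured genes of the pleckstrin homology family had 0 mid-parent calls, the nearest being PLEKHG3 at 0.18 (adjusted p = 0.275), PLEKHO2 at -0.09 (adjusted p = 0.447) and PLEKHM3 at -0.13 (adjusted p = 0.466).

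Whether heat moved the 6 genes over all breeds together is a question that the choice of members did not touch, since it was made on breeds. Of 10 probes, 0 passed for HS minus TN (limma, smallest adjusted p = 0.232), against 0.859% of all kept probes. At an unadjusted p under 0.05, 1 of 10 member probes passed, against 13.1% of all. The median HS minus TN was -0.03 over the 10 probes and 0.0011 over all kept probes, and the median size, without sign, was 0.06 in both.

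The 1 probe was PTPMT1. In TN its log2 signal was 8.72 at the lowest, 9.64 at the median and 10.16 at the highest (n = 18), and in HS 8.15, 9.28 and 9.96 (n = 18). HS minus TN was -0.28 ± 0.111 (limma, adjusted p = 0.232), and 12 of 18 HS pigs were below the TN mean of their breed. Split by breed, the LW difference was -0.13, that of CR -0.42 and that of F1 -0.29. Within single breeds 0 of 10 probes passed (limma), against 0.00893% of all probes in F1 and 0% in LW and CR. At an unadjusted p under 0.05 the counts were 0 in LW, 2 in CR and 0 in F1. Differences within 1 breed share their values with the F1 contrasts that chose the members, so these counts are a description.

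For the other genes the 95% interval of HS minus TN gives the range of change around each estimate. It was -0.45 to 0.16 for PLEKHD1, and 15 of 18 HS pigs were below the TN mean of their breed. High pigs raised that mean in both parental breeds. In LW TN it was 6.19 against a median of 5.85. In CR TN replicate 6 lay at 7.27 and the others at 5.65 to 5.91. Most TN pigs of LW and CR were thus also below their mean, and the count is not read as a fall. The interval was -0.34 to 0.29 for TAOK3 probe 1 and -0.50 to 0.43 for TRIM46 probe 1. For MYL6B it was -0.14 to 0.70, and its estimate went from 0.28 to 0.111 without the 4 libraries. For CPXM2 it was -0.29 to 0.31 in probe 1 and -0.07 to 0.59 in probe 2, so the probes of this gene differed in how much of a rise they allowed. None of these intervals excluded 0.

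**Figure D5:**
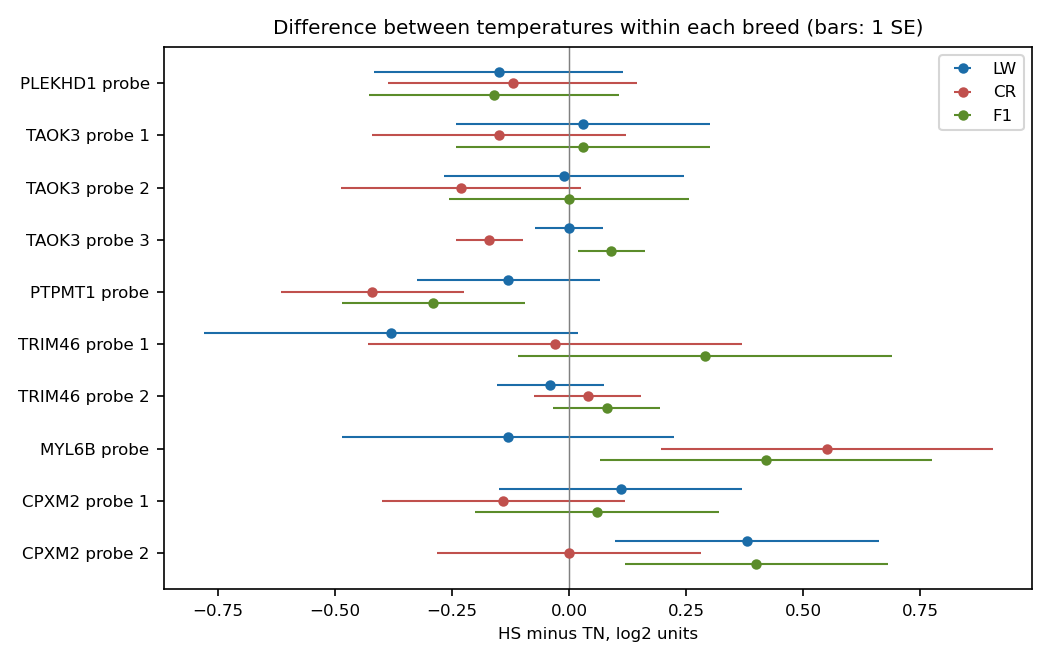
HS minus TN (horizontal axis, log2 units) within LW, CR and F1 for the 10 probes, with bars of 1 SE from the fit over 36 arrays. The largest differences are 0.55 for MYL6B in CR, 0.42 for MYL6B in F1 and -0.42 for PTPMT1 in CR. The MYL6B value in F1 rests on HS replicates 1 and 2 (9.81 and 9.84), since the other 4 F1 HS pigs lie at 7.38 to 7.89, below the F1 TN mean of 7.92. In any breed 0 of 10 probes passed, which is a description, since the same values entered the choice of members.

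The members were chosen by F1 contrasts at each temperature, and the change of those contrasts between temperatures is built from the same values. The counts below are therefore a description, and no conclusion on such a change is drawn from them. The test of both interaction terms called 0 of 10 member probes (limma, smallest adjusted p = 0.995) and 0% of all kept probes, with 0 of 10 and 3.74% at an unadjusted p under 0.05. For the HS minus TN difference of F1 minus CR, 0 of 10 passed (smallest adjusted p = 0.999, 0% of all), and for that of F1 minus mid-parent 0 of 10 (smallest adjusted p = 1, 0% of all). At an unadjusted p under 0.05 these counts were 1 of 10 (3.53% of all) and 0 of 10 (3.71% of all), the 1 being TAOK3 probe 3 at 0.25 ± 0.102. For the mid-parent departure the intervals were -0.59 to 0.77 in TAOK3 probe 1, -0.50 to 0.47 in PTPMT1, -0.51 to 1.49 in TRIM46 probe 1, -0.68 to 1.09 in MYL6B and -0.57 to 0.73 in CPXM2 probe 1. These intervals are wide next to the departures they describe. Without the 4 libraries the MYL6B estimate turned from 0.20 to -0.60 for mid-parent and went from -0.13 to -0.88 for F1 minus CR, and neither passed (limma, smallest adjusted p = 0.909 and 0.961).

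Heat calls among kin and neighbours were 0 of 70 and 2 of 60 (3.33%), against 0.938% of all symbols. Both neighbours lie before TAOK3. PRKAB1, a subunit of AMP-activated kinase, was higher in HS by 0.32 ± 0.0645 (limma, adjusted p = 0.0128), and HSPB8, a small heat shock protein, was lower by -0.25 ± 0.0629 (adjusted p = 0.0476). The HSPB8 call held in 16 of 47 alternatives and not without the 4 libraries (adjusted p = 0.111). Of the kin, PLSCR3 at -0.20 (adjusted p = 0.0674) and MID2 at 0.20 (adjusted p = 0.0732) came nearest.

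The 6 genes were among the more variable of the array within groups of the same breed and temperature. In 7 of the 10 probes, those of PLEKHD1, MYL6B and CPXM2, both bright TAOK3 probes and TRIM46 probe 1, the spread was at or above the 95.9th percentile of kept probes, with SDs from 0.467 to 0.733 against a median of 0.19. PTPMT1 lay at the 90th percentile, TRIM46 probe 2 at 55.3 and TAOK3 probe 3 at 5.51. The breed differences thus came with large differences between animals of 1 breed, in clear levels for PLEKHD1, TAOK3 and MYL6B and without them for PTPMT1 and TRIM46.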

How the data were processed

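Groups were taken from the sample labels. The authors deposited 1 Agilent Feature Extraction 10.10.1.1 table per array, with spot intensity values on a linear scale and other columns such as background flags, and 1 table over all arrays with log2 values of 42051 probes, made, per their methods, by quantile normalization. In that deposited log2 table each probe was centred near 1 level, its array medians were all 7.66, and each of 36 columns correlated best with its own array once probes were centred (r 0.791 to 0.993), so only differences were taken from it.

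From the scanner tables, median signals were log2 transformed and quantile normalized, 107 non-uniform spots were set as missing, and probes well above background on at least 6 arrays were kept. No spot was saturated. Symbols came from the files and RefSeq (Sscrofa11.1). Models were fitted to all kept probes with limma 3.58.1 in R 4.3.3 (two-sided moderated tests, Benjamini-Hochberg over 44796 probes, threshold 0.05): breed plus temperature, and a means model of 6 groups for values per temperature and interactions. The members and lists were chosen with earlier results of these data known. Named were all member probes, the 3 most alike symbols per member, kin called for HS minus TN or mid-parent and the 3 nearest to the threshold, and neighbours (5 on each side) called for F1 minus mid-parent or F1 minus CR. Other genes (TAOK1, TAOK2, the genes within 2 Mb, the endothelial markers, the F1 minus LW and HS minus TN calls) were named after their values were seen. A representative probe is the one with the highest mean. Arrays lay on 5 slides. Tested on simulated data, a log2 change of 0.5 was recovered for 89 of 100 probes in HS minus TN and 93 of 100 in F1 minus mid-parent. Those probes were drawn at random from all kept probes and the simulated animals were independent. The rates therefore do not apply to the member probes, most of which vary more. Alternatives were other signals and background corrections, other filters, slide as a block, array weights, a trended spread and left-out arrays. The number of arrays limits the precision. No column of the authors' comparisons was used.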

Additional observations from a re-analysis of the deposited data

Results flagged for a closer look

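In PLEKHD1 CR TN replicate 6 was the highest of its 6 animals, with a gap to the next of 0.839 of the group's range, and CR HS replicate 1 was the highest of its group with a gap of 0.737. In CPXM2 probe 2, LW HS replicate 4 was the highest of its group with a gap of 0.634. Such gaps, beyond Dixon's 95% critical value, were found in 3 of 60 checks of a probe in a group of 6, and chance gives about 3. PLEKHD1 in these CR animals was 7.27 and 6.85, within or above the F1 range, and CPXM2 probe 2 in the LW animal was 9.70, where CR ranged from 8.94 to 10.61.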

How the results depend on the processing

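For the 10 member probes, HS minus TN and the change of the F1 departure stayed uncalled under all 47 alternatives (smallest adjusted p 0.0741 for HS minus TN, in PTPMT1). With the processed signal scaled to the 75th percentile, PLEKHD1 lay further from its parents, at 1.41 for F1 minus LW in HS, 1.62 and 1.58 for F1 minus CR in TN and HS, and 1.45 and 1.497 for mid-parent, and TAOK3 probe 3 at -0.26 and 0.30 for F1 minus CR and 0.188 for mid-parent in HS. Without the 4 libraries that stand apart, and also without those and F1 TN replicate 3, MYL6B in HS was -2.03 against CR, 0.089 against LW and -0.971 against mid-parent. The cause was not tested for any of these. Signs of F1 differences held in all 47 alternatives except for TAOK3 against LW, TRIM46 probe 1 against mid-parent in TN TRIM46 probe 2 and TAOK3 probe 3 against LW in HS, each smaller than its SE.

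Within slides, F1 minus mid-parent kept its sign in 5 of 5 for PLEKHD1, PTPMT1 and TAOK3 probes 1 and 2, and ranged from -0.87 to 1.08 for MYL6B and from -1.31 to 0.13 for CPXM2 probe 1. Each slide holds few animals of a breed.

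Called probes were 385 for HS minus TN (202 to 529 with single arrays left out), 0 for the interaction, and 502 for mid-parent (255 to 1175). Mid-parent calls were 1668 with array weights, 5992 without the 4 libraries and 7624 without 5, when F1 minus LW gave 13464 and 14486 and F1 minus CR without 5 gave 1072. Of 70 kin and 60 neighbours, 2 were called for HS minus TN (1 to 3 with single arrays left out), 3 for mid-parent (1 to 4), 2 for F1 minus CR (0 to 3) and 20 for F1 minus LW (12 to 26). F1 minus CR gave 1 with the authors' table, with no filter and with all 36 arrays required, and HS minus TN 1 with no filter. With array weights mid-parent gave 6 and F1 minus LW 33. Without the 4 libraries and without 5, HS minus TN gave 1 each, mid-parent 16 and 18, F1 minus CR 6 each, and F1 minus LW 39 and 44. PRKAB1 kept its call in 47 of 47 alternatives, HSPB8 in 16, KBTBD4 in 45, RPS26 in 46, PPP1R12A in 44, ACADSB in 38 and MID1 in 16 of 46. No paired analysis was possible, because each pig was killed at 1 temperature and the labels do not say which pigs were littermates.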
